A study of Homo sapiens with 3 samples.

Results

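The genes of the integrated stress response and the unfolded protein response were followed in the established pancreatic cancer line MIAPaCa-2. The set was named by function, as 49 symbols in 8 roles, and its rule uses no measured value. Members and roles were nevertheless chosen with earlier results of these data known. Of these, 48 were among the 14949 genes of the expression table, and STC2 was not analysed here. They comprised 5 stress sensors, 7 transcription factors, 6 effectors and feedback genes, 6 enzymes of amino acid supply, 6 amino acid transporters, 3 tRNA synthetases, 10 chaperones and folding factors of the endoplasmic reticulum (ER), and 5 genes of ER-associated degradation. The enzymes, transporters and synthetases are called the amino acid group (15 genes), and the folding and degradation genes the ER chaperone group (15 genes).

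In the integrated stress response, kinases that sense different stresses phosphorylate the translation initiation factor eIF2, which lowers protein synthesis in general while translation of the transcription factor ATF4 goes up. ATF4, with partners of the C/EBP family, drives genes that import and make amino acids and charge tRNAs, and prolonged signalling adds DDIT3 and its targets. The unfolded protein response shares the kinase EIF2AK3 and adds ERN1 and ATF6, which act through spliced XBP1 and cleaved ATF6 on genes that fold proteins in the ER or clear those that fail to fold. Sequencing of mRNA reads the levels of the transcripts, and neither the phosphorylation of eIF2 nor ATF4 protein was measured in these libraries.

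The 3 libraries came from 3 kinds of cells: cells with a control short hairpin (sh-CTL), cells with a short hairpin against METTL3 (sh-METTL3), and sh-CTL cells exposed to 80 nM NMS-P937 for 24 h (sh-CTL + PLK1i). The hairpin lowers the RNA m6A methyltransferase subunit that METTL3 encodes (METTL3-KD below), and NMS-P937 (PLK1i) inhibits the mitotic kinase PLK1. All cells were grown in DMEM with serum, described in the study's methods as low in glucose, and sh-CTL and sh-METTL3 carried no other treatment according to the labels. Whether each hairpin line was 1 clone or a pool is not given in the sources used here. With 1 library per group no difference could be set against replicate spread or tested, so every value below compares libraries, and both comparisons share the sh-CTL library.

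Depth in the listed genes was 37449266 reads for sh-CTL, 46944920 for METTL3-KD and 47727541 for PLK1i, and members had between 45 and 38534 reads in a library. Values are normalized counts, that is reads divided by the size factor of the library. A log2 change is the difference of log2(normalized count + 1) from sh-CTL, and the added 1 pulls the changes of thinly covered genes toward 0. The range after it in parentheses is the exact 95% Clopper-Pearson interval of the ratio of reads, called the counting interval. It covers counting error only and treats each read as a separate molecule. Reads amplified by PCR do not each stand for a separate molecule, so the interval can be too narrow even for counting error. It does not cover variation between cultures. METTL3 normalized counts of 3939, 1651 and 3888 in the 3 libraries, in the order just given, went with the sh-METTL3 label, at 41.9% of sh-CTL after knockdown. PLK1 normalized counts were 8058, 5226 and 8515 in the same order. They do not check the inhibitor label, since NMS-P937 acts on the kinase and not on its mRNA. Of 8 epithelial markers 5 were measured, at a summed 3492, 4213 and 3250 CPM (reads scaled to library size), mostly KRT8 and KRT18, while KRT7, EPCAM and CDH1 were not analysed here. On lists for other cell types, 3 of 6 fibroblast markers, mostly COL1A2, summed to 1193, 943 and 942 CPM (COL3A1 alone to 14.1, 0.98 and 8.61), 2 of 4 mesenchymal state markers, mostly VIM, to 5672, 4336 and 5696 CPM, 2 of 5 immune markers, mostly CD68 and without PTPRC, to 42.8, 78.0 and 62.7 CPM, and no acinar, endocrine or endothelial marker was among the measured genes; their part in the differences below was not tested. In bulk RNA, fewer cells of a kind and less RNA per cell cannot be told apart.

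Promoters of the set carry known response elements, which are shown here because the ER chaperone group and the amino acid group held different ones, a difference that rests on sequence and on no measured level. RefSeq promoter windows of 300 bases (250 before the start and 50 after, build GRCh38.p14) were matched for 43 of the 48 genes, in 61 windows, and searched on both strands. The ER stress response element, read as CCAAT and CCACG with any 9 bases between, is bound by NF-Y and by ATF6. It was found in 27 of 35116 windows of all genes (0.0769%), in 5 of 16 windows of the ER chaperone group, in 0 of 20 windows of the amino acid group, and in the window of XBP1. The sites below are printed on the strand of the gene, with the element in capitals, so that a match on the other strand reads in reverse, from CGTGG to ATTGG.
HSPA5: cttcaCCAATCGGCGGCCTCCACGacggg
HSP90B1: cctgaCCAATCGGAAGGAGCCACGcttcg
HSP90B1: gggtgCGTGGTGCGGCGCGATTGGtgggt
CALR: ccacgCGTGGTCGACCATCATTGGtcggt
PDIA6: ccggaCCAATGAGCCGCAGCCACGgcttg
CRELD2: cctctCGTGGCGAACTCGGATTGGgccat
XBP1: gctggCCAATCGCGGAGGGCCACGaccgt
Spans are those of the capitals alone, with the strand on which the element reads forward. The element of HSPA5 lay at chr9:125241391-125241409 on the minus strand, from 66 to 48 bases before the start, that of CALR at chr19:12938384-12938402 on the minus strand, and that of XBP1 at chr22:28800603-28800621 on the minus strand. HSP90B1 held 2 elements, at chr12:103930216-103930234 on the plus strand, and at chr12:103930321-103930339 on the minus strand.

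The ER stress response element II, ATTGG and CCACG with any base between, was found in 19 of the 35116 windows (0.0541%). It was present in the windows of HERPUD1, SDF2L1 and HYOU1, which held 2 copies. Both copies in HYOU1 overlapped a match to the XBP1 core, GACGTG, a motif found in 7.81% of all windows and in 5 of the 61 windows of the set.
HERPUD1: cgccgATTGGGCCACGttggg
SDF2L1: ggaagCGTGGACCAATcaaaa
HYOU1: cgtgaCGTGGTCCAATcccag
HYOU1: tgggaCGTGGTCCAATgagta
The HERPUD1 copy lay at chr16:56932025-56932035 on the plus strand, and the SDF2L1 copy at chr22:21642114-21642124 on the minus strand.

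The C/EBP-ATF response element, TGATG, any base and AA, which binds ATF4 with a C/EBP partner, is the element of the amino acid side. It was found in 1270 of the 35116 windows (3.62%), in 5 of 20 windows of the amino acid group, and in 1 of 16 of the ER chaperone group. Beside these, CEBPG and CHAC1 held it. A match on the other strand starts with TT and ends with CATCA.
ASNS: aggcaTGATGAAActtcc
SLC1A5: gtggcTGATGCAAgctgt
SLC7A1: actgcTGATGAAAcctgg
SLC3A2: actccTTACATCAgctcc
CARS1: ggcggTTGCATCAgattc
CEBPG: gcgtcTGATGCAAcctgc
CHAC1: tgccgTTGCATCActcct
HERPUD1: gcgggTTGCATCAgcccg
The ASNS element lay at chr7:97872469-97872476 on the minus strand, from 68 to 61 bases before the start, and the CHAC1 element at chr15:40953262-40953269 on the minus strand. HERPUD1 was the only gene of the set with both this element and an ER stress response element of either form in the windows searched. A match describes these letters and does not show binding, and a window without a match says nothing of elements elsewhere.

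The levels of the set spanned a wide range. On the RPKM scale, reads scaled to the length of annotated exon and to library size, CALR had the highest level in every library, at 204, 258 and 183 for sh-CTL, METTL3-KD and PLK1i, and HSPA5 stood at 89.2, 102 and 99.1. SLC38A2 was the highest gene of the amino acid group in every library, at 99.5, 112 and 72.04, although SLC7A5 stood level with it with PLK1i, at 72.02. VLDLR and NUPR1 were lowest, at 0.315 and 0.33 in sh-CTL. Among the transcription factors, ATF4 and ATF5 stood highest, at 58.6 and 45.6 in sh-CTL, and DDIT3 at 4.68. Exon lengths are unions over all annotated transcripts, which lowers this scale for genes with many long transcripts such as EIF2AK3.

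**Figure D1:**
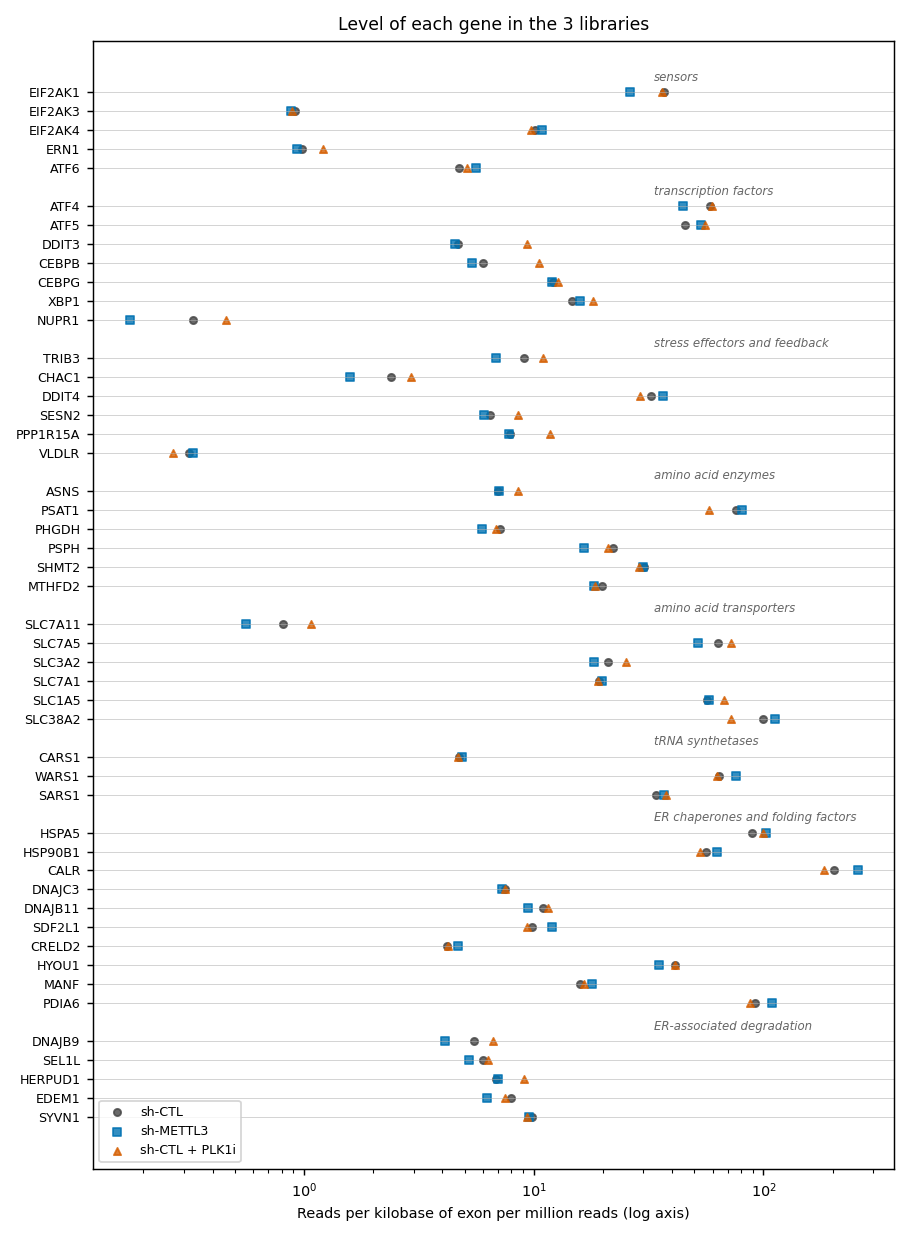
Level of each of the 48 genes in RPKM (log axis), by role, with a circle for sh-CTL, a square for sh-METTL3 and a triangle for sh-CTL + PLK1i, 1 library each. CALR lies farthest right, at 258 in sh-METTL3, and NUPR1 farthest left, at 0.174 in the same library.

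Few of the genes differed by much in either comparison. All that passed a log2 change of 0.5 were lower in sh-METTL3 or higher in sh-CTL + PLK1i. Their numbers were near the shares of all genes, and the shares among genes with more reads, given last, were smaller. In sh-METTL3, 0 of the 48 genes were higher by a log2 change of at least 0.5 (1.41-fold), against 9.63% of all genes, and 4 were lower by as much (EIF2AK1, NUPR1, CHAC1 and SLC7A11), against 8.33%. EIF2AK1 sat on that threshold, at -0.5041, and fell short of it with CPM (-0.4989) and with upper-quartile factors (-0.4845), which left 3. In sh-CTL + PLK1i, 3 were higher (DDIT3, CEBPB and PPP1R15A), against 5.18% of all genes, and 0 were lower, against 5.77%. At a threshold of 1 on the log2 scale, 0 genes of the set were higher or lower in sh-METTL3, where 3.42% and 2.94% of all genes were. In sh-CTL + PLK1i, DDIT3 was the only gene of the set higher by that much, at a value on the threshold that fell just under it with CPM and with upper-quartile factors, against 1.39% of all genes, and 0 were lower, against 1.13%. These shares of all genes include many with few reads: of 9074 genes averaging 500 normalized counts or more, 261 were higher and 351 lower by at least 0.5 in sh-METTL3, and 71 and 83 with PLK1i.

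Smaller differences beyond counting error were more common. In sh-METTL3, the counting interval lay above 0 for 16 of the 48 genes, against 27.1% of all genes, and below 0 for 16, against 28.2%. In sh-CTL + PLK1i it lay above 0 for 22, against 23.1%, and below 0 for 8, against 22.8%. The median log2 change of the set was -0.02 in sh-METTL3 and 0.05 with PLK1i, where all genes had medians of 0.0013 and 0.0023. The highest of the 3 normalized counts fell in sh-CTL + PLK1i for 23 genes, in sh-METTL3 for 16 and in sh-CTL for 9, or 47.9%, 33.3% and 18.8%, beside 34.4%, 39.4% and 26.2% of all genes. Among the 9074 well counted genes the counting intervals lay above and below 0 for 29.9% and 35.4% in sh-METTL3, and for 29.9% and 27.8% with PLK1i.

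**Figure D2:**
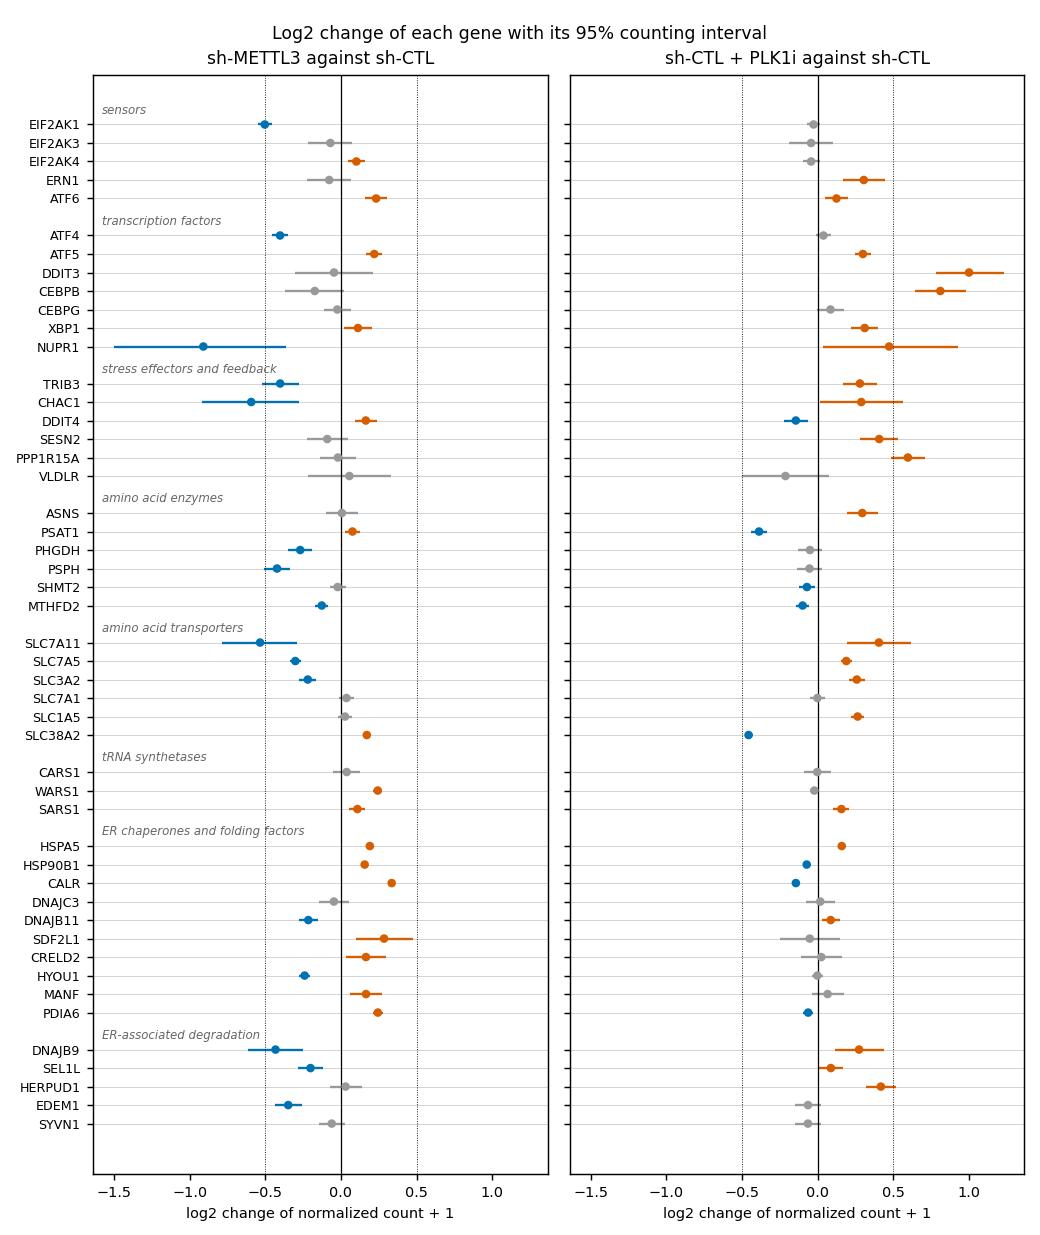
Log2 change of each of the 48 genes from sh-CTL, by role, in sh-METTL3 (left) and sh-CTL + PLK1i (right); points are the log2 change of normalized count + 1, bars the 95% counting intervals, and dotted lines mark 0.5 in either direction. Orange intervals lie above 0, blue below 0, and grey include 0; DDIT3 lies farthest right at 1.002 in sh-CTL + PLK1i, and NUPR1 farthest left at -0.91 in sh-METTL3.

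The sensors differed among themselves. EIF2AK1, the heme-regulated kinase that also relays mitochondrial stress, had normalized counts of 8877 in sh-CTL, 6259 with METTL3-KD and 8715 with PLK1i. It was lower in sh-METTL3, with a log2 change of -0.50 (-0.55 to -0.46), and near sh-CTL with the inhibitor, at -0.03 (-0.07 to 0.02). EIF2AK1 lies on chromosome 7 (GRCh37 6061878 to 6098806), whose 632 genes had a median log2 change of -0.25 in that library, and its 20 nearest measured neighbours had a median of -0.44. The part of that region in the value was not tested. EIF2AK3, the ER-resident kinase known as PERK, had 829 in sh-CTL, 789.7 with METTL3-KD and 805 with PLK1i, and both intervals included 0, at -0.07 (-0.22 to 0.08) and -0.04 (-0.19 to 0.10). EIF2AK4, which senses uncharged tRNA, had 5301 in sh-CTL, 5688 with METTL3-KD and 5145 with PLK1i, slightly higher in sh-METTL3 at 0.10 (0.05 to 0.16). The 20 neighbours of EIF2AK4 on chromosome 15 had a median of 0.13 in sh-METTL3, whose part was not tested.

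ERN1, the ER kinase and nuclease that splices XBP1 mRNA, had normalized counts of 819.8 in sh-CTL, 777 with METTL3-KD and 1014 with PLK1i. The sh-CTL + PLK1i library stood above the other two, with a log2 change of 0.31 (0.17 to 0.44), while sh-METTL3 lay within counting error of sh-CTL at -0.08 (-0.22 to 0.07). ATF6, the membrane-bound factor cleaved on ER stress, had 2950.2 in sh-CTL, 3467 with METTL3-KD and 3217 with PLK1i, lowest in sh-CTL. Its log2 changes were 0.23 (0.16 to 0.31) in sh-METTL3 and 0.12 (0.05 to 0.20) with PLK1i. Over the 5 sensors the median was -0.07 in sh-METTL3, or 0.02 without the chromosome 7 gene EIF2AK1, and -0.03 with the inhibitor.

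The transcription factors were the role that stood highest in the inhibitor library. All 7 had their highest normalized count in sh-CTL + PLK1i, where 34.4% of all genes did. Of the 7, 5 had a counting interval above 0 and 0 below, against 23.1% and 22.8% of all genes, and the median log2 change was 0.31. In sh-METTL3 the median was -0.05, with 2 above counting error and 2 below, against 27.1% and 28.2% of all genes. ATF4 (ENSG00000128272, GRCh37 chromosome 22, 39915700 to 39918688), the central factor of the integrated stress response, had 6691 in sh-CTL, 5059.9 with METTL3-KD and 6872 with PLK1i. Its mRNA was lower in sh-METTL3, with a change of -0.40 (-0.46 to -0.35) on the log2 scale and did not differ from sh-CTL beyond counting error with the inhibitor, at 0.04 (-0.01 to 0.09). The 20 neighbours of ATF4 had a median of 0.13 in sh-METTL3, whose part was not tested. ATF5, a relative of ATF4 that acts in mitochondrial stress, had 5762 in sh-CTL, 6711 with METTL3-KD and 7092 with PLK1i, lowest in sh-CTL, with changes of 0.22 (0.17 to 0.27) and 0.30 (0.25 to 0.35).

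DDIT3 (ENSG00000175197, GRCh37 chromosome 12, 57910371 to 57915520), which encodes the pro-apoptotic factor CHOP, gave the largest change of the set in either comparison. Its normalized counts were 267 in sh-CTL, 259 with METTL3-KD and 536 with PLK1i, from 229, 279 and 582 reads. The first 2 values lay within counting error of each other, at -0.05 (-0.30 to 0.21), and the inhibitor library was higher by a log2 change of 1.002 (0.78 to 1.23), above 98.6% of all genes in that comparison. CEBPB, a partner of ATF4 and DDIT3, showed the same order, with 485 in sh-CTL, 430.1 with METTL3-KD and 852 with PLK1i and log2 changes of -0.17 (-0.37 to 0.02) and 0.81 (0.64 to 0.98). XBP1, whose spliced form drives ER genes, had 1947 in sh-CTL, 2105 with METTL3-KD and 2418 with PLK1i, and the table does not separate its spliced from its unspliced mRNA. Both XBP1 intervals lay above 0, at 0.11 (0.02 to 0.20) and 0.31 (0.22 to 0.40). NUPR1, a small chromatin-associated stress protein, was the least expressed factor, with 68, 45 and 120 reads and normalized counts of 79.3, 41.7 and 110.5. NUPR1 was lowest in sh-METTL3, at -0.91 (-1.50 to -0.36), and its interval with the inhibitor, at 0.47 (0.04 to 0.93), reached almost to 0. In sh-METTL3 the 20 neighbours of NUPR1 had a median of 0.10, and their part was not tested. CEBPG, a C/EBP partner of ATF4, stayed within counting error in both, at -0.02 and 0.09.

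Effectors and feedback genes downstream of ATF4 and DDIT3 had median log2 changes of -0.06 in sh-METTL3 and 0.28 with PLK1i over 6 genes. TRIB3, a pseudokinase that restrains ATF4 and DDIT3, had 1303 in sh-CTL, 985 with METTL3-KD and 1582 with PLK1i. The 3 values were well separated, with changes of -0.40 (-0.53 to -0.28) and 0.28 (0.17 to 0.39), although the 15 measured neighbours of TRIB3 on chromosome 20 also had a median of -0.22 in sh-METTL3, and their part was not tested. CHAC1, which degrades glutathione, had fewer reads, 184, 153 and 285, and normalized counts of 215, 142 and 262. It was lowest in sh-METTL3, at -0.59 (-0.92 to -0.28), and above sh-CTL with the inhibitor by little more than counting error, at 0.29 (0.02 to 0.57). PPP1R15A, the phosphatase subunit GADD34 that reverses the phosphorylation of eIF2, had 1178 in sh-CTL, 1161 with METTL3-KD and 1782 with PLK1i. The first 2 values were alike within counting error, at -0.02 (-0.14 to 0.10), and the inhibitor library was higher by 0.60 (0.49 to 0.71). The 3 other genes had log2 changes from -0.09 (SESN2) to 0.16 (DDIT4) in sh-METTL3 and from -0.21 (VLDLR) to 0.41 (SESN2) with the inhibitor.

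Amino acid enzymes did not move as a block. Their median log2 change was -0.07 in sh-METTL3 and -0.06 with PLK1i, and in each comparison 1 of 6 lay above counting error and 3 below. Shares of all genes above and below were 27.1% and 28.2% in sh-METTL3, and 23.1% and 22.8% with PLK1i. ASNS, asparagine synthetase and a standard readout of ATF4, had 1496 in sh-CTL, 1502 with METTL3-KD and 1837 with PLK1i. The first 2 values were alike within counting error, at 0.01 (-0.10 to 0.11), and the inhibitor library was higher, at 0.30 (0.19 to 0.40). ASNS also lies on chromosome 7, where its 20 neighbours had a median of -0.07 in sh-METTL3. PSAT1, the aminotransferase of serine synthesis, was on the other side of sh-CTL with the inhibitor. It had 7348 in sh-CTL, 7746 with METTL3-KD and 5617 with PLK1i, with changes of 0.08 (0.03 to 0.12) and -0.39 (-0.44 to -0.34). PHGDH, the first enzyme of serine synthesis, had 2873 in sh-CTL, 2383 with METTL3-KD and 2774 with PLK1i. PHGDH was lowest in sh-METTL3, at -0.27 (-0.35 to -0.19), while the inhibitor value of -0.05 (-0.13 to 0.03) included 0. In sh-METTL3 the 20 neighbours of PSAT1 on chromosome 9 had a median of 0.19, and those of PHGDH on chromosome 1 a median of -0.15. The part of these neighbours was not tested.

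PSPH, the phosphatase that completes serine synthesis, had 2661 in sh-CTL, 1984 with METTL3-KD and 2564 with PLK1i. It was lower in sh-METTL3, at -0.42 (-0.51 to -0.34), and within counting error of sh-CTL with the inhibitor, at -0.05 (-0.13 to 0.03). PSPH lies on chromosome 7 as well, beside 20 neighbours with a median of -0.28 in sh-METTL3, whose part was not tested, and reads from a near-identical pseudogene could be mixed with its own. SHMT2 and MTHFD2, mitochondrial enzymes that feed serine carbon into folates, had changes between -0.13 and -0.02 in both comparisons.

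Transporters split more widely. Of 6, 1 lay above and 3 below counting error in sh-METTL3, with a median of -0.10, and 4 lay above and 1 below in sh-CTL + PLK1i, with a median of 0.22. Among all genes 27.1% lay above and 28.2% below in sh-METTL3, and 23.1% and 22.8% in sh-CTL + PLK1i. SLC7A11, the cystine importer, had 293, 254 and 492 reads and normalized counts of 342, 235 and 453. The order of the 3 libraries was that of CHAC1, lowest in sh-METTL3 and highest with the inhibitor, with changes of -0.54 (-0.79 to -0.29) and 0.41 (0.20 to 0.62). SLC7A5, the light chain of the LAT1 leucine importer, had 13218 in sh-CTL, 10720.4 with METTL3-KD and 15076 with PLK1i, with changes of -0.30 (-0.34 to -0.26) and 0.19 (0.16 to 0.22), and near-identical pseudogenes could share its reads. SLC3A2, the heavy chain that pairs with both of these, had 5904 in sh-CTL, 5070.1 with METTL3-KD and 7067 with PLK1i, again in that order, at -0.22 (-0.28 to -0.16) and 0.26 (0.21 to 0.31). SLC38A2, the adaptive SNAT2 importer of small neutral amino acids, was the reverse of the 3, with 28278 in sh-CTL, 31835 with METTL3-KD and 20603 with PLK1i. It was higher in sh-METTL3, at 0.17 (0.15 to 0.19), and its change with the inhibitor, -0.46 (-0.48 to -0.43), was the lowest change of the set in that comparison. SLC1A5, which imports glutamine, was near sh-CTL in sh-METTL3 (0.03) and higher with the inhibitor (0.27), and SLC7A1, which imports arginine, stayed within counting error in both, at 0.04 and -0.0013.

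Synthetases, which charge tRNAs with amino acids, differed little between libraries. WARS1, the tryptophan enzyme, which interferon also induces, had 17748 in sh-CTL, 21011 with METTL3-KD and 17485 with PLK1i, higher in sh-METTL3 at 0.24 (0.21 to 0.27) and not beyond counting error with the inhibitor at -0.02 (-0.05 to 0.01). SARS1, the serine enzyme, had 5722 in sh-CTL, 6169 with METTL3-KD and 6382 with PLK1i and was lowest in sh-CTL, with changes of 0.11 (0.06 to 0.16) and 0.16 (0.10 to 0.21). CARS1, the cysteine enzyme, had 2072 in sh-CTL, 2127 with METTL3-KD and 2069 with PLK1i, and both intervals included 0, at 0.04 (-0.05 to 0.13) and -0.0025 (-0.09 to 0.09). Of 17 other cytosolic synthetases, all measured, 2 lay above and 8 below counting error in sh-METTL3, with a median of -0.04, and 5 above and 6 below with the inhibitor, with a median of -0.01. Their changes ranged from -0.496 (GARS1, on chromosome 7) to 0.19 (IARS1) in sh-METTL3. With the inhibitor they ranged from -0.24 (IARS1) to 0.14 (GARS1). The shares of all genes were 27.1% and 28.2% in sh-METTL3, and 23.1% and 22.8% with the inhibitor.

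Most ER chaperones and folding factors stood slightly higher in sh-METTL3. Of 10 genes 7 had a counting interval above 0 and 2 below, against 27.1% and 28.2% of all genes. Among the 9074 well counted genes these shares were 29.9% and 35.4%. The median log2 change was 0.17, inside the middle 50% of all genes (-0.18 to 0.19). The counting intervals of the 10 reached a median of 0.05 to either side, against 0.14 for all genes. In sh-CTL + PLK1i 2 of the 10 lay above and 3 below, against 23.1% and 22.8% of all genes, with a median of 0.01. The summed level of the 10 was 2756 CPM in the control, 3103 with METTL3-KD and 2710.1 with PLK1i. HSPA5 (ENSG00000044574, GRCh37 chromosome 9, 127997132 to 128003661), the chaperone BiP that holds the ER sensors inactive, had 25444 in sh-CTL, 29043 with METTL3-KD and 28424 with PLK1i. It was lowest in sh-CTL, with changes of 0.19 (0.17 to 0.22) and 0.16 (0.13 to 0.18), and the 20 neighbours of HSPA5 on chromosome 9 had a median of 0.18 in sh-METTL3, whose part was not tested. CALR (ENSG00000179218, GRCh37 chromosome 19, 13049392 to 13055303), the lectin chaperone calreticulin, had 24910.1 in sh-CTL, 31429 with METTL3-KD and 22547 with PLK1i. Its change of 0.34 (0.31 to 0.36) was the highest of the set in sh-METTL3, and with the inhibitor it stood below sh-CTL, at -0.14 (-0.17 to -0.12). SDF2L1, a cofactor of HSPA5, had fewer reads, 388, 595 and 474, and normalized counts of 452, 552 and 436, higher in sh-METTL3 at 0.29 (0.10 to 0.47) and within counting error with the inhibitor at -0.05 (-0.25 to 0.15).

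PDIA6, a disulfide isomerase, and HSP90B1, the ER form of HSP90, were also higher in sh-METTL3, at 0.24 (0.21 to 0.27) and 0.16 (0.13 to 0.18), and slightly lower with the inhibitor, at -0.06 (-0.09 to -0.03) and -0.07 (-0.10 to -0.05). In sh-METTL3 the 20 neighbours of PDIA6 had a median of -0.08, and their part was not tested. MANF and CRELD2, small secreted ER stress proteins, were higher in sh-METTL3 at 0.17 and 0.17. The exceptions were HYOU1, an exchange factor for HSPA5, and DNAJB11, a cochaperone of it, which were lower in sh-METTL3 at -0.24 (-0.28 to -0.20) and -0.22 (-0.28 to -0.15). HYOU1 normalized counts were 12330.3 in sh-CTL, 10436 with METTL3-KD and 12318 with PLK1i, and those of DNAJB11 were 4484, 3859.6 and 4761 in the same order. DNAJC3, which inhibits eIF2 kinases, stayed within counting error in both, at -0.05 and 0.02.

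Genes of ER-associated degradation, which pulls misfolded proteins out of the ER, lay on the other side in sh-METTL3. Of 5 genes 3 lay below counting error and 0 above, with a median log2 change of -0.20 (-0.13 without the chromosome 7 gene DNAJB9), while with the inhibitor 3 lay above and 0 below, with a median of 0.09. Of all genes 28.2% lay below and 27.1% above in sh-METTL3, and 23.1% lay above and 22.8% below with the inhibitor. DNAJB9, an ERN1-restraining cochaperone, had 611 in sh-CTL, 452 with METTL3-KD and 739 with PLK1i. All 3 values were separated, with changes of -0.43 (-0.61 to -0.25) and 0.27 (0.11 to 0.44). DNAJB9 lies on chromosome 7, and its 20 neighbours had a median of -0.30 in sh-METTL3, whose part was not tested. HERPUD1, a scaffold of the ubiquitin ligase complex, had 1510.1 in sh-CTL, 1542 with METTL3-KD and 2019 with PLK1i, within counting error in sh-METTL3 at 0.03 (-0.08 to 0.14) and higher with the inhibitor at 0.42 (0.32 to 0.52). EDEM1, which hands over misfolded glycoproteins, had 2331 in sh-CTL, 1829.7 with METTL3-KD and 2231 with PLK1i, lower in sh-METTL3 at -0.35 (-0.44 to -0.26) and at -0.06 (-0.15 to 0.02) with the inhibitor. The 17 neighbours of EDEM1 had a median of 0.04 in sh-METTL3, whose part was not tested. SEL1L and SYVN1, partners in the ligase itself, had changes of -0.20 and -0.06 in sh-METTL3, and of 0.09 and -0.06 with the inhibitor.

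Set side by side, the amino acid group and the ER chaperone group were not separated by their medians. In sh-METTL3 the medians were 0.01 and 0.03, a difference of -0.02, and in sh-CTL + PLK1i they were -0.0025 and 0.02, again a difference of -0.02. Both groups ranged across 0, from -0.54 to 0.24 and from -0.43 to 0.34 in sh-METTL3, and from -0.46 to 0.41 and from -0.14 to 0.42 with the inhibitor. In counts, 4 of 15 amino acid genes lay above and 6 below counting error in sh-METTL3, beside 7 above and 5 below of 15 ER genes. With the inhibitor the numbers were 6 and 4 for the amino acid genes and 5 and 3 for the ER genes. Shares of all genes above and below were 27.1% and 28.2% in sh-METTL3, and 23.1% and 22.8% with the inhibitor. The summed share of reads was 2710.3, 2778 and 2579 CPM for the amino acid group and 2969.9, 3293 and 2936 for the ER group, in sh-CTL, sh-METTL3 and sh-CTL + PLK1i. The ER sum was highest in sh-METTL3, and the amino acid sum was lowest with the inhibitor, where SLC38A2 had 22380 reads against 24250 in the shallower sh-CTL library. The wider separation was within the ER group, between the folding factors (0.17) and the degradation genes (-0.20) in sh-METTL3. With means these values were 0.10 and -0.20, and without DNAJB9 the degradation median was -0.13. Because the roles were chosen with earlier results of these data known, this split describes the values and tests nothing.

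**Figure D3:**
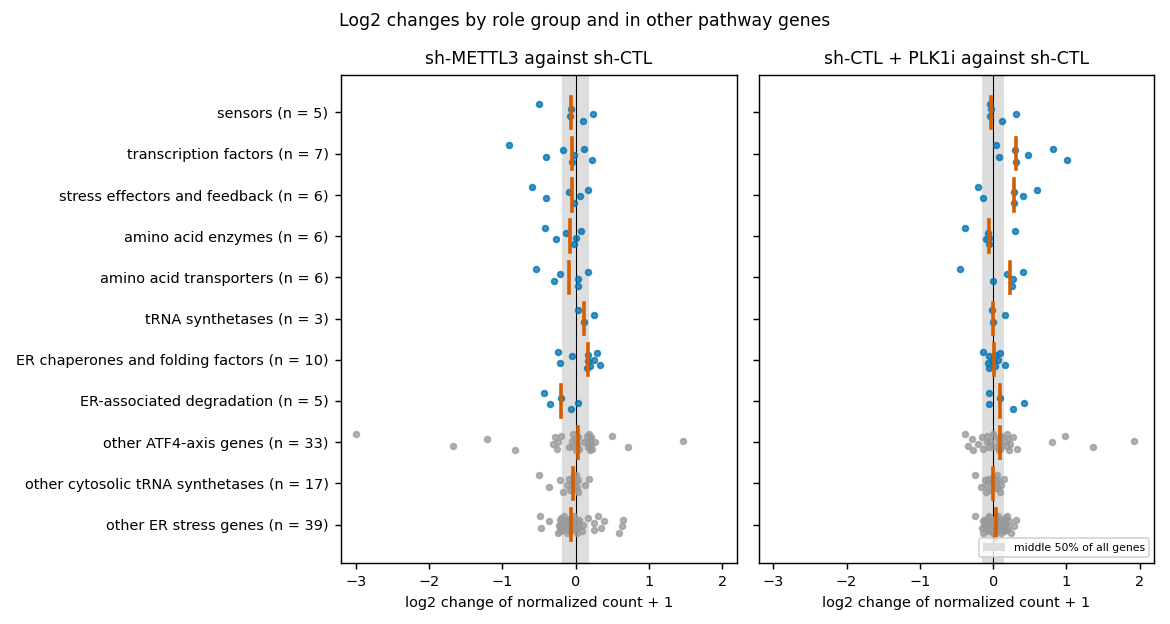
Log2 change from sh-CTL of every measured gene by role (blue, the 48 genes of the set) and in 3 lists of other pathway genes (grey), for sh-METTL3 (left) and sh-CTL + PLK1i (right), with the median of each group as an orange bar and the middle 50% of all 14949 genes as a grey band. With PLK1i the bars of the transcription factors, effectors and transporters lie outside the band on the right, at 0.31, 0.28 and 0.22, and in sh-METTL3 that of the degradation genes lies outside it on the left, at -0.20. The grey point farthest left is ADM2, which had 3 reads in sh-METTL3.

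The genes were next grouped by the element in their promoter instead of by role. The 6 genes with the ER stress response element shown above (CALR, CRELD2, HSP90B1, HSPA5, PDIA6 and XBP1) were all higher in sh-METTL3 beyond counting error (27.1% of all genes and 29.9% of the well counted ones were), from 0.11 to 0.34, with a median of 0.18. All but XBP1 are folding factors already counted as higher above, and the motifs were chosen with earlier results of these data known. CALR, HSP90B1, HSPA5 and PDIA6 had 14107 to 38534 reads in a library, where small changes lie beyond counting error. With the inhibitor 2 of the 6 genes lay above counting error (XBP1 and HSPA5), 3 below and 1 within, with a median of -0.02. Of the 10 other measured genes with the element, 4 lay above and 4 below in sh-METTL3, with a median of 0.03. Among all genes, 23.1% lay above and 22.8% below with the inhibitor, and 27.1% and 28.2% in sh-METTL3. The 3 genes with the ER stress response element II had changes of 0.03 (HERPUD1), -0.24 (HYOU1) and 0.29 (SDF2L1) in sh-METTL3, and of 0.42, -0.0015 and -0.05 with the inhibitor.

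The 8 genes with the C/EBP-ATF response element (ASNS, CARS1, CEBPG, CHAC1, HERPUD1, SLC1A5, SLC3A2 and SLC7A1) were higher with the inhibitor or within counting error of sh-CTL. In sh-CTL + PLK1i 5 lay above counting error (23.1% of all genes did) and 0 below, with a median of 0.26, and in sh-METTL3 0 lay above and 2 below (CHAC1 and SLC3A2), with a median of 0.02. Of the 258 other measured genes with that element, 80 lay above and 56 below counting error in sh-CTL + PLK1i, with a median of 0.02, and 64 above and 97 below in sh-METTL3, with a median of -0.04. All genes lay above and below in shares of 23.1% and 22.8% with the inhibitor, and of 27.1% and 28.2% in sh-METTL3. HERPUD1, which holds both kinds of element, had the highest change of the ER chaperone group with the inhibitor and none beyond counting error in sh-METTL3. Any part of its elements in these values was not tested.

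**Figure D4:**
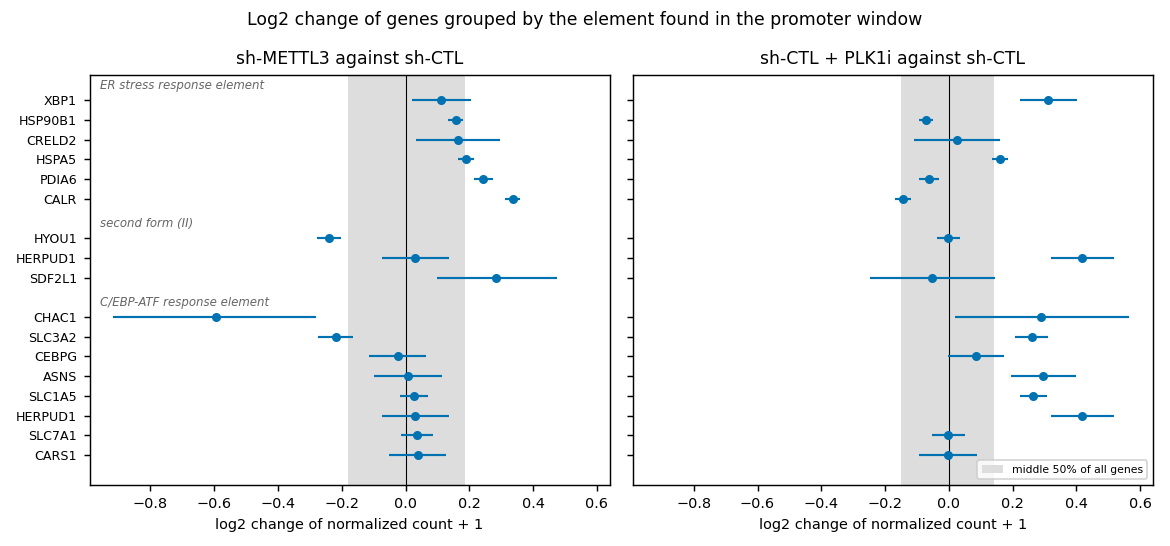
Log2 change from sh-CTL, with 95% counting intervals, of the genes whose promoter window held each element, for sh-METTL3 (left) and sh-CTL + PLK1i (right), with the middle 50% of all genes as a grey band; HERPUD1 appears under 2 elements. All 6 genes with the ER stress response element lie right of 0 in sh-METTL3, from 0.11 to 0.34.

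The wider ATF4 axis was read from 35 further genes, of which 33 were measured. In sh-METTL3 12 lay above and 9 below counting error, with a median log2 change of 0.03, and in sh-CTL + PLK1i 17 lay above and 4 below, with a median of 0.09. Among all genes the shares were 27.1% and 28.2% in sh-METTL3, and 23.1% and 22.8% in sh-CTL + PLK1i. ATF3, an immediate stress factor, had 79, 141 and 383 reads in sh-CTL, sh-METTL3 and sh-CTL + PLK1i. The inhibitor library was far above the others, with a change of 1.92 (1.58 to 2.30), and sh-METTL3 was above sh-CTL as well, at 0.50 (0.10 to 0.92). TRIB1, a pseudokinase related to TRIB3, had 127, 262 and 282 reads and was higher in both, at 0.71 (0.40 to 1.03) and 0.81 (0.50 to 1.12). GADD45A, a growth arrest gene that p53 also induces, had 1299, 920 and 3245 reads, lower in sh-METTL3 at -0.83 (-0.95 to -0.71) and higher with the inhibitor at 0.98 (0.89 to 1.07). TXNIP, which binds thioredoxin and responds to glucose, had 610, 2126 and 1979 reads and was higher in both, at 1.47 (1.34 to 1.60) and 1.36 (1.23 to 1.49). ALDH1L2, a mitochondrial folate enzyme, had 352, 190 and 521 reads, lower in sh-METTL3 at -1.22 (-1.48 to -0.96) and at 0.22 (0.03 to 0.42) with the inhibitor. Below the mean of 50 normalized counts asked of named genes, GDF15 had 50, 19 and 57 reads, with -1.67 (-2.57 to -0.94) in sh-METTL3, and ADM2 had 25, 3 and 37 reads, with -3.00 (-5.76 to -1.68); both encode secreted stress signals and are named after their values were seen.

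Of 40 further ER stress genes, 39 were measured, and they did not share the direction of the folding factors. In sh-METTL3 10 lay above and 19 below counting error, with a median of -0.06, and in sh-CTL + PLK1i 16 lay above and 6 below, with a median of 0.04. The shares of all genes were 27.1% above and 28.2% below in sh-METTL3, and 23.1% and 22.8% in sh-CTL + PLK1i. ERO1B, an oxidase that recharges disulfide isomerases, had 307, 604 and 426 reads and was higher in sh-METTL3, at 0.64 (0.44 to 0.85), with 0.13 (-0.08 to 0.35) for the inhibitor. SPCS3, a subunit of the signal peptidase, had 2622, 4960 and 3409 reads, higher in sh-METTL3 at 0.59 (0.52 to 0.66) and within counting error with the inhibitor at 0.04 (-0.04 to 0.11). CDNF, with at most 26 reads in a library, did not differ beyond counting error in either comparison.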

How the data were processed

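RNA sequencing of 3 MIAPaCa-2 libraries, 1 per group, gave 1 table. Per the labels, ISOGEN served for RNA extraction and a stranded mRNA kit for the libraries. The submitters' processing notes name FastQC 0.11.9, STAR 2.7.10, RSEM 1.3.3 and hg19, without their roles. The authors deposited log2 values whose normalization is not given in the sources used here: they equal log2 of a scaled whole read number plus 4, and the smallest is 2. Undoing this gave 1 read as 1.17, 0.927 and 0.921 units in sh-CTL, sh-METTL3 and sh-CTL + PLK1i, and 100% of values under 2000 reads lay within 0.1 of a whole number. Every listed gene reached at least 0.503 CPM in its highest library, and genes below that level were not analysed here.

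Changes were differences of log2(normalized count + 1), and genes needed a mean of at least 1, which all had. Each role group's 3 most changed genes (summed over both comparisons) and 11 usual readouts, 30 genes in all, were to be given in full, and other pathway genes past a log2 change of 0.5 with a mean of at least 50. Members, roles, lists and promoter motifs were chosen with earlier results of these data known. Gene positions and exon lengths came from GENCODE 44 on GRCh37 and promoters from RefSeq on GRCh38.p14, in which 5 members had no window. Neighbours were the 10 genes on each side with a mean of at least 50. The read recovery and intervals were checked on simulated data. Python 3.11.15, numpy 2.4.6, pandas 2.3.3, scipy 1.17.1 and matplotlib 3.10.9 were used. Alternatives were 2 pseudocounts, 3 scalings, means in place of medians, 2 filters on low values and, chosen after seeing the data, leaving out chromosome 7.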

Additional observations from a re-analysis of the deposited data

How the results depend on the processing

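The 480 changes of single genes of the set all stayed inside their counting intervals under 2 other pseudocounts and 3 other scalings. None of these genes changed to the other side of 0 after lying beyond counting error. Group medians near 0 were not held to that rule, and some did change side. The amino acid group in sh-METTL3 stood at 0.0061 by median and -0.0795 by mean. The scalings moved the median of all genes by at most 0.02. DDIT3 sat on the threshold of 1 with PLK1i: with a pseudocount of 4, with CPM and with upper-quartile factors its change was 0.9939, 0.9931 and 0.9861, and the number of genes of the set past 1 was 0 under each. EIF2AK1 sat on the threshold of 0.5 in sh-METTL3, at -0.4989 with CPM and -0.4845 with upper-quartile factors, which took the number lower by 0.5 from 4 to 3; it was also 3 with a mean of at least 200 and without chromosome 7. Means in place of medians gave -0.0795 for the amino acid group, -0.1751 for the transcription factors and 0.1039 for the folding factors in sh-METTL3, and 0.0636 for the sensors, 0.4318 for the transcription factors and 0.1103 for the transporters with PLK1i. Without chromosome 7 the sensor median in sh-METTL3 was 0.0158, because EIF2AK1 left the group. Requiring a mean normalized count of at least 50 or 200 lowered the numbers of all genes past each threshold, since fewer genes were tested. In sh-METTL3, 885 and 466 genes were then higher and 815 and 523 lower by 0.5, and 250 and 111 higher and 230 and 123 lower by 1. With PLK1i, 348 and 134 were higher and 424 and 169 lower by 0.5, and 58 and 19 higher and 31 and 7 lower by 1. No paired analysis was possible because each group held 1 library, and for the same reason no library could be left out. Genes with few reads, such as NUPR1 and CHAC1, have intervals too wide to place small changes.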
